A study of Homo sapiens with 3 samples.

Results

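MSH3, MSH6, PMS2, PMS1, MLH3, POLE, POLD1 and MUTYH, a group of DNA repair and proofreading genes, were followed in the transcriptome of DLD1 cells, a mismatch-repair-deficient colorectal cancer cell line. The 8 genes were taken by symbol from the 60504 genes of the deposited table, with earlier results of these data known. RNA-Seq was performed on 1 library of DLD1 control cells, labelled wild type, and on 2 libraries of BEX2 knocked out DLD1 cells made with CRISPR/Cas9, which the labels number KO1 and KO2 and which are here called BEX2-/- clone 1 and clone 2. That they came from separate clones is inferred from this numbering and from the screening of clones in the study's methods, and is not stated. If they share a clone, their spread is that between cultures or libraries. All 3 libraries share the parental line and the repair defect it carries, so no library shows repair-proficient cells. The labels name a single lane and run date. Whether the control cells had themselves been cloned is not given in the sources used here, and each of the BEX2-/- libraries was counted as 1 replicate of the knockout.

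Mismatch repair corrects the base mispairs and small loops that DNA polymerases leave behind. MSH6 and MSH3 are the alternative subunits of the MutSα and MutSβ complexes, which bind mispairs and loops, and PMS2, PMS1 and MLH3 are alternative subunits of the MutL complexes that act next. POLE and POLD1 are the catalytic subunits of the replicative polymerases epsilon and delta, whose own exonucleases proofread new DNA, and MUTYH is a glycosylase that removes adenine mispaired with oxidised guanine. Loss of mismatch repair lets runs of a repeated base change their length, and inherited defects in several of these genes predispose to colorectal tumours. The defect of DLD1 cells is known to involve frameshift mutations of MSH6. The common partner subunits of these complexes were not analysed here.

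Several of these genes hold, in their own coding sequence, runs of 1 base of the kind that mismatch repair protects. The main transcript of each gene in GENCODE release 29 (GRCh38) was searched for coding runs of at least 8 identical bases. MSH3, MSH6, MLH3 and PMS2 held such a run (4 of 8 members), as did 5.8% of 19501 protein-coding genes. PMS1, POLE, POLD1 and MUTYH held none. The shares of members and of all genes were not matched for coding length. The runs stand in capitals within windows of 30 bases of the transcript, 5′ to 3′. They are of the kind that a repair defect can expose. Shorter runs and other repeats were not searched.
MSH3: atgttagggacAAAAAAAAgggcaacattt
MSH6: gccggaagataCCCCCCCCttcttagagct
MLH3, longer run: agagaaagagAAAAAAAAAgaatctagcaa
MLH3, shorter run: aattgcccaacAAAAAAAAttgcagaacga
PMS2: gactggagaagAAAAAAAAgacgtgtccat

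The runs lie within single exons at chr5:80675096-80675103 on the plus strand (MSH3), chr2:47803501-47803508 on the plus strand (MSH6), chr14:75047901-75047909 and chr14:75047635-75047642 on the minus strand (MLH3), and chr7:5987526-5987533 on the minus strand (PMS2). They are sequences of the reference genome. The FPKM table gives the amount of RNA of a gene and does not show the length of these runs in DLD1 cells.

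FPKM is the number of reads of a gene scaled by its length in kilobases and by the depth of the library. For most genes with few reads, the product of FPKM and merged exon length fell on whole numbers of reads. Depths fitted in this way on genes with 1 annotated transcript were 47458850, 35593989 and 47722374 reads (control, clone 1, clone 2). Between 11572 and 11776 genes per library reached 1 FPKM. BEX2 was listed at 0 in all 3 libraries, where the limit of 3 reads that a count of 0 allows is 0.0538, 0.0717 and 0.0535 FPKM (control, clone 1, clone 2), so its RNA gave no check of the genotypes. The study reported relatively high BEX2 protein in DLD1 cells and checked the knockout by western blotting. Why the control library lists no BEX2 RNA was not tested. Several epithelial markers were abundant, with EPCAM at 265, 282 and 220 FPKM in control, clone 1 and clone 2. Others differed widely between the clones, namely KRT20 (18.9, 117 and 0.931 FPKM) and VIL1 (3.61, 13.2 and 0.221 FPKM). CDX2 differed less (33.3, 43.2 and 24.0 FPKM). The leukocyte marker PTPRC was listed at 0 in every library, and the 4 leukocyte markers summed to between 0.729 and 0.793 FPKM. Most of this was CD14 (0.793, 0.76 and 0.7 FPKM in control, clone 1 and clone 2). The 4 stromal markers summed to between 0.129 and 0.634 FPKM, highest in clone 1, where PDGFRB was at 0.602 FPKM. The 3 endothelial markers summed to between 0.0649 and 0.0784 FPKM.

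All 8 transcripts were present in every library, with between 718 and 5676 reads for each gene and library. POLD1 stood highest, with 16.6, 13.6 and 14.3 FPKM in the control, clone 1 and clone 2 libraries. MSH6 stood lowest, at 2.32, 2.23 and 1.63 FPKM. Of the 11675 genes with a mean of at least 1 FPKM, 23.7%, 20.5% and 12.9% lay below MSH6 in these libraries, in the same order. POLE had rank 2 in each library, and MUTYH had rank 3 in DLD1 control cells and in clone 1 but rank 6 in clone 2. The levels of POLD1 and MLH3 did not overlap with those of the gene next to them in the order, whereas the ranges of POLE, MUTYH, MSH3, PMS1 and PMS2 ran into one another.

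**Figure D1:**
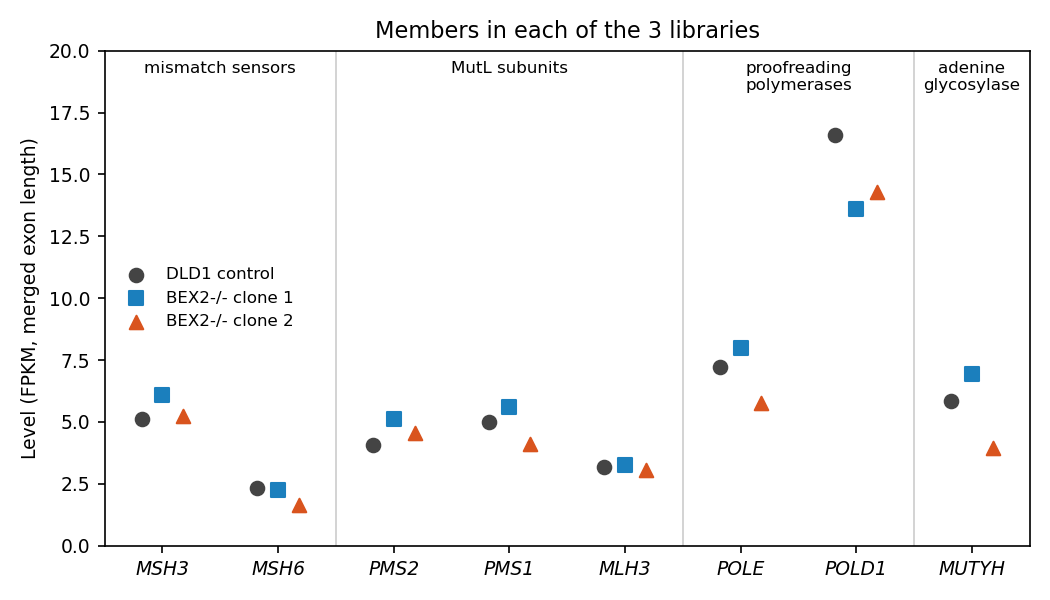
FPKM (y axis) of the 8 genes (x axis, grouped by role) in DLD1 control cells (circles), BEX2-/- clone 1 (squares) and BEX2-/- clone 2 (triangles), 1 point for each library. POLD1 lies above and MSH6 below all other genes in each library, and MUTYH spans 3.93 to 6.94 FPKM.

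The place of MSH6 at the bottom of this order depended on the length by which its reads were divided. The merged exons of MSH6 (ENSG00000116062, chromosome 2, 47695530 to 47810101, plus strand) cover 10993 nt, because the annotation adds transcripts that start far upstream, whereas the main transcript has 7476 nt and its coding sequence 4080 nt. Divided by main transcripts, the reads of MSH6 and MLH3 gave nearly the same level in DLD1 control cells, 3.41 and 3.38 on the FPKM scale. Divided by coding sequences, MSH6 (6.25), PMS2 (6.18) and MLH3 (6.13) lay together below MSH3 (7.07). POLE (ENSG00000177084, chromosome 12, 132623753 to 132687365, minus strand) has merged exons of 16609 nt against a main transcript of 7840 nt, and its level was 7.20 FPKM against 15.3 on the main transcript. In DLD1 control cells the leading order of POLD1, POLE and MUTYH was the same by all 3 lengths. In clone 2 the place of MUTYH depended on the length. It was below PMS1 by merged exons (3.93 against 4.12 FPKM). It was above PMS1 by main transcripts (8.35 against 6.95) and by coding sequences (9.38 against 8.02). Reads outside the main transcript count in these quotients, and the ratio of 1 gene between libraries does not depend on the length.

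Whether the BEX2 knockout altered these genes was examined first across the clones. Ratios were taken as log2(FPKM + 1), which understates the change of low genes, and fitted with limma across all 11675 genes, with Benjamini-Hochberg adjustment. The residual spread came from the 2 clones alone, with 1 degree of freedom before moderation, and the single control library was assumed to vary as the clones did. None of the 8 genes passed an adjusted p of 0.05, and no gene of the table did (0% of 11675, with 139 genes or 1.19% at an unadjusted p under 0.05 in limma). The adjusted p of limma was 1 for each of the 8 genes. The differences on the log2 scale between the clone mean and DLD1 control cells ran from -0.23 (SE 0.18) for POLD1 to 0.21 (SE 0.20) for PMS2. Their median was -0.06, and that of all genes tested was 0.02. A two-sided exact permutation test of the absolute difference between 1 library and the other 2 has 3 assignments and cannot go below p = 0.333.

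The level in DLD1 control cells lay below both clones for 2 members, MSH3 and PMS2, and above both for another 2, MSH6 and POLD1. Over all genes tested, the control lay below both clones in 32.4% and above both in 27.7%, so these counts are close to what all genes gave. For the other 4 members, MLH3, PMS1, POLE and MUTYH, the control lay between the clones.

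Pairs of libraries were then compared by their reads with a two-sided exact binomial test, adjusted over the 10516 genes with recovered reads. Such a test compares 2 libraries and covers counting error only, not the spread between cultures or clones. Between clone 1 and DLD1 control cells, 5 members were higher and 1 lower, against 36% and 25.4% of all genes. Between clone 2 and DLD1 control cells, 1 member was higher and 5 were lower, against 32.3% and 35.2% of all genes. Between clone 2 and clone 1, 6 members were lower and 0 higher, against 40.7% and 27.1% of all genes. At these depths, differences past counting error were thus frequent among all genes, and the sizes of the differences matter more than their calls. A ratio in which the larger value of FPKM + 1 exceeded the smaller by at least 25% was reached by no member in clone 1 against the control, where 12.1% of all genes were that much higher and 9.17% lower. In clone 2 against the control it was reached by 2 members, MSH6 and MUTYH, both lower, with 13.7% of all genes that much lower and 13.5% higher. In clone 2 against clone 1 it was reached by 3 members, PMS1, POLE and MUTYH, again all lower, with 17.9% of all genes that much lower and 13.3% higher. By reads, MSH6 was at 0.730-fold in this pair, near PMS1 (0.735) and POLE (0.720). It fell short of the threshold only on the scale of FPKM + 1. The comparisons of the clones with the control share the control library.

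**Figure D2:**
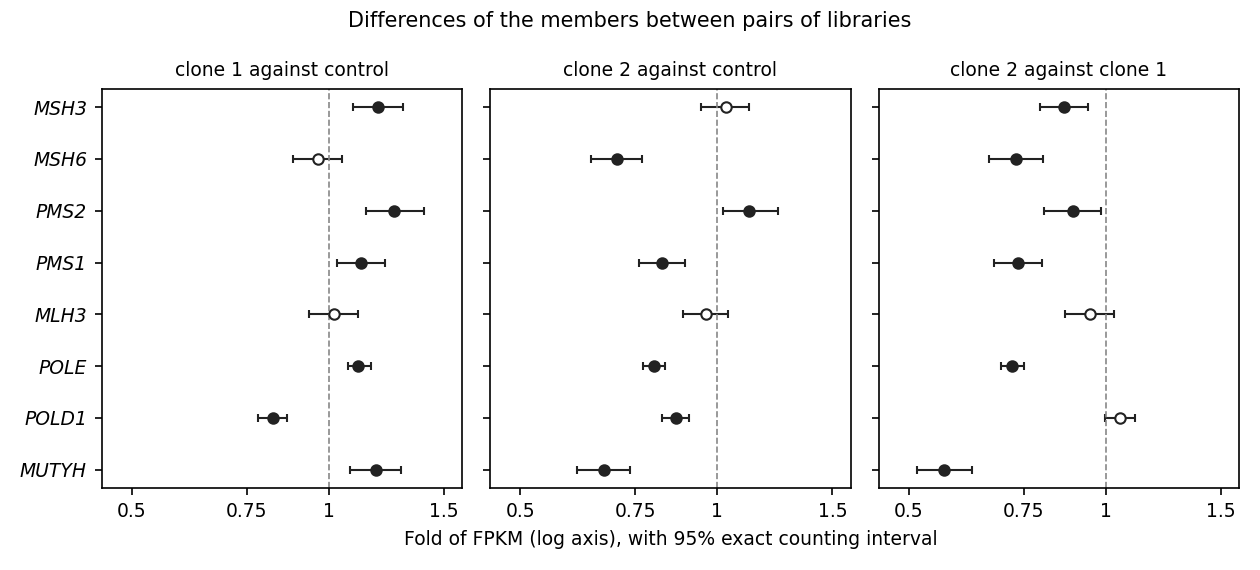
Fold of FPKM (x axis, log scale) for the 8 genes (y axis) between pairs of libraries, with 95% exact intervals from the reads that cover counting error only. Filled points passed an adjusted p of 0.05 in the exact binomial test, open points did not, and in the panel of clone 2 against clone 1 POLD1 is the only gene right of 1.

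MSH3 (ENSG00000113318, chromosome 5, 80654648 to 80876460, plus strand), the subunit that turns the complex towards larger loops, had 1144, 1021 and 1182 reads (control, clone 1, clone 2), or 5.12, 6.09 and 5.26 FPKM. It was highest in clone 1, at 1.19-fold of the control (95% interval 1.09 to 1.30, exact binomial adjusted p = 0.000152), and at 1.03-fold of the control in clone 2 (0.946 to 1.12, adjusted p = 0.579). MSH6, the subunit that serves single mispairs, had 1210, 873 and 854 reads. Clone 1 and the control were close to each other (0.962-fold, interval 0.881 to 1.05), and clone 2 stood apart below both, at 0.702-fold of the control (0.642 to 0.767, exact binomial adjusted p = 7.53e-15). The mean of the clones was 1.93 ± 0.427 FPKM (SD, n = 2), less than 1 SD from the control value. Of the MSH6 exons, 1785 nt (16.2%) are also exons of FBXO11 on the opposite strand, which was at 1.45-fold of the control in clone 1 and 1.48-fold in clone 2. How reads of the shared stretch were counted is not given in the sources used here.

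Among the MutL genes, PMS2 and PMS1 differed in pattern and MLH3 varied least of all members. PMS2 (ENSG00000122512, chromosome 7, 5973239 to 6009125, minus strand), the endonuclease subunit of the main MutL complex, had 759, 718 and 857 reads, or 4.06, 5.12 and 4.56 FPKM. Both clones were above the control, by 1.26-fold (1.14 to 1.40) in clone 1 and 1.12-fold (1.02 to 1.24) in clone 2, with exact binomial adjusted p of 2.54e-05 and 0.0318. PMS2 has near-identical copies, so its reads are uncertain. Among them PMS2P1 was highest, at 7.55, 5.33 and 6.80 FPKM, PMS2CL had 458, 398 and 456 reads, and the 6 listed copies summed to 16.5, 13.8 and 15.1 FPKM. PMS1 (ENSG00000064933, chromosome 2, 189784085 to 189877629, plus strand), whose part in repair is less well understood, was at 5.0, 5.60 and 4.12 FPKM (1292, 1086 and 1070 reads). It was above the control in clone 1 (1.12-fold, exact binomial adjusted p = 0.0111) and below it in clone 2 (0.824-fold, 0.759 to 0.894). The call in clone 1 was lost when the depths were scaled by the median ratio of the libraries (exact binomial adjusted p = 0.0839). MLH3 (ENSG00000119684, chromosome 14, 75013764 to 75051532, minus strand), also known for its part in meiotic crossing over, was at 3.19, 3.25 and 3.07 FPKM (1268, 966 and 1224 reads). For MLH3 the fold was 1.02 (0.933 to 1.11) in clone 1 and 0.960 (0.887 to 1.04) in clone 2, and neither difference was detectable at this depth.

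The proofreading polymerases differed in direction in clone 1 and were both lower in clone 2. POLE had 5676, 4732 and 4570 reads, or 7.20, 8.0 and 5.77 FPKM. Clone 1 was above the control (1.11-fold, 1.07 to 1.16, exact binomial adjusted p = 3.05e-07) and clone 2 below it (0.801-fold, 0.770 to 0.833, adjusted p = 2.83e-28). POLD1 (ENSG00000062822, chromosome 19, 50384204 to 50418016, plus strand) had 3825, 2358 and 3326 reads, and 426 nt (8.6%) of its exons are also exons of another annotated gene on the same strand. It was the member that was lower in both clones by the test on reads, at 0.822-fold of the control in clone 1 (0.781 to 0.865, exact binomial adjusted p = 2.95e-13) and 0.865-fold in clone 2 (0.825 to 0.906, adjusted p = 2.89e-09). Its clone mean of 14.0 ± 0.502 FPKM (SD, n = 2) lay below the control value by more than 1 SD, while the limma adjusted p was 1. Between the clones POLD1 differed by 1.05-fold (0.998 to 1.11, exact binomial adjusted p = 0.0849), and this passed 0.05 under both other scalings of the depths (adjusted p 0.000871 and 0.0477).

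MUTYH (ENSG00000132781, chromosome 1, 45329163 to 45340470, minus strand) varied most of the 8 genes. It had 1087, 965 and 733 reads, or 5.86, 6.94 and 3.93 FPKM. Clone 1 was above the control (1.18-fold, 1.08 to 1.29, exact binomial adjusted p = 0.000361) and clone 2 was below it (0.671-fold, 0.610 to 0.737, adjusted p = 1.89e-16). Clone 2 was at 0.567-fold of clone 1 (0.514 to 0.624, exact binomial adjusted p = 1.65e-30). The clone mean was 5.43 ± 2.13 FPKM (SD, n = 2), less than 1 SD from the control, so the clones differed from each other more than their mean differed from DLD1 control cells.

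Some members start beside another gene that is read in the opposite direction. In GENCODE 29 this held for PMS1 with ORMDL1, PMS2 with AIMP2, POLE with PXMP2 and MUTYH with TOE1, whose gene starts lie between 120 and 800 nt apart. ACYP1, listed beside MLH3, was on the same strand, with its gene start 17951 nt from that of MLH3. It was at 8.97, 8.26 and 9.04 FPKM. MUTYH and TOE1, which encodes a deadenylase, had the same order of libraries. TOE1 was at 23.0, 25.1 and 14.6 FPKM, 1.09-fold of the control in clone 1 (1.04 to 1.15) and 0.633-fold in clone 2 (0.598 to 0.671). Against clone 1, clone 2 was at 0.579-fold for TOE1 (0.545 to 0.615) and at 0.567-fold for MUTYH, and the intervals overlapped. The starts of both genes overlap, with 552 nt of shared exons or 14.1% of the MUTYH exons, and the part of shared reads in this likeness was not tested.

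The other neighbours followed their member less closely. AIMP2, a scaffold protein of the aminoacyl-tRNA synthetase complex, was below the control in both clones, at 0.821-fold (0.760 to 0.886) and 0.773-fold (0.719 to 0.830), while PMS2 was above it in both. ORMDL1, a regulator of sphingolipid synthesis, was at 1.02-fold in clone 1 (0.952 to 1.09) and 0.862-fold in clone 2 (0.809 to 0.919). These folds were near those of PMS1 (1.12 and 0.824). The starts of PMS1 and ORMDL1 also overlap, with 103 nt of shared exons or 1.9% of the PMS1 exons. The part of shared reads was not tested here either. PXMP2, a peroxisomal membrane protein, had 96, 70 and 79 reads, too few to show a difference of the size seen in POLE.

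The promoters were read from RefSeq (GRCh38.p14), as windows from 250 bases before to 50 bases after a start, and the window nearest to the main transcript was used for each of the 8 genes. Both strands were searched for the E2F-type letters TTTCCCGC and TTTGGCGC and for CCAAT. E2F factors are known to drive genes of DNA replication. TTTCCCGC was found in MSH6 (1 of 8 members) and in 1.63% of 35116 promoter windows of all genes. TTTGGCGC was found in MSH3 and POLE (2 of 8 members) and in 0.65% of the windows. The 3 sites are shown with the motif in capitals, on the strand of the gene.
MSH3: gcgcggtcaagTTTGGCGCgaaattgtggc
MSH6: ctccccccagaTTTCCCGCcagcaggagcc
POLE: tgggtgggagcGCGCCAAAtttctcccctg

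They lie at chr5:80654534-80654563, chr2:47783137-47783166 and chr12:132687342-132687371. CCAAT was found in 5 of 8 members (MSH6, PMS1, PMS2, POLE and MUTYH) and in 34.61% of the windows. A match of letters is a description and was not tested as a binding site. Of the 3 holders of the E2F-type letters, all were lower by reads in clone 2 than in clone 1 (0.863-fold for MSH3, 0.730-fold for MSH6 and 0.720-fold for POLE), as 40.7% of all genes were. So were PMS1, PMS2 and MUTYH, which lack these letters (0.735, 0.890 and 0.567-fold), while MLH3 and POLD1 were not called. Against the control the holders did not move alike. Their folds were 1.19 (MSH3), 0.962 (MSH6) and 1.11 (POLE) in clone 1, and 1.03, 0.702 and 0.801 in clone 2.

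The members were set beside 4 lists of genes that work with them. In limma no gene of any of the lists passed an adjusted p of 0.05, so the values below are descriptions and counting tests between libraries. Of 16 mismatch repair partners, 14 had a mean of at least 1 FPKM, and their log2 ratios had medians of -0.13 (clone 1) and -0.27 (clone 2), compared with 0.04 and -0.01 for all genes tested and 0.14 and -0.21 for the members. Reads were recovered for 12 of them, of which 10 were lower and 0 higher in clone 1, and 11 were lower and 0 higher in clone 2, by the exact binomial test. Of all genes, 25.4% were lower and 36% higher in clone 1, and 35.2% were lower and 32.3% higher in clone 2. Within each list, genes were ordered by the log2 difference between the clone mean and the control, not by level. The lowest differences were those of RPA3 (-0.39), a subunit of the protein that covers single-stranded DNA, at 9.81, 7.96 and 6.59 FPKM, and RFC4 (-0.35), a subunit of the clamp loader, at 24.3, 21.0 and 17.0 FPKM. PCNA, the sliding clamp, was at 238, 215 and 169 FPKM. The highest differences were those of SETD2 (0.18), a histone methyltransferase, with 5.98, 7.60 and 6.23 FPKM, and of RFC1 (-0.08), with 11.5, 11.6 and 10.1 FPKM. The exonuclease EXO1 was at 12.4, 11.3 and 11.8 FPKM.

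Among the other subunits of the replicative polymerases and primase, 9 of 10 passed the filter on low values. The medians of their log2 ratios were -0.12 (clone 1) and -0.33 (clone 2), and by reads 5 of 9 were lower in clone 1 and 9 of 9 in clone 2, with 0 higher, against 25.4% and 35.2% of all genes lower and 36% and 32.3% higher. POLD2, the partner of POLD1 in polymerase delta, was at 83.1, 67.9 and 62.0 FPKM, lower in both clones as POLD1 was. POLE2, the partner of POLE, was at 6.43, 5.57 and 4.20 FPKM, so that in clone 1 POLE was above and POLE2 below the control (exact binomial adjusted p = 0.0130 for POLE2). POLD3 (8.60, 8.33 and 6.87 FPKM) and PRIM2, a primase subunit (5.93, 5.88 and 4.70 FPKM), had the highest log2 differences of the list (-0.16 and -0.15).

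Base excision repair partners of MUTYH passed the filter in 16 of 16 cases, and their log2 ratios had medians of -0.23 (clone 1) and -0.19 (clone 2). By reads, 11 were lower and 2 higher in each clone, against 25.4% of all genes lower and 36% higher in clone 1, and 35.2% lower and 32.3% higher in clone 2. NTHL1, a glycosylase for oxidised pyrimidines, had the lowest log2 difference (-0.51), at 11.1, 8.35 and 6.73 FPKM, and NUDT1, which removes oxidised dGTP from the nucleotide pool, was at 13.4, 10.4 and 10.1 FPKM. OGG1, the glycosylase that removes oxidised guanine itself, was at 2.97, 2.44 and 2.27 FPKM, below the control in both clones, whereas MUTYH was above it in clone 1. POLB, the repair polymerase, was at 6.29, 6.51 and 7.17 FPKM, and TDG, a thymine glycosylase, at 7.56, 8.24 and 7.59 FPKM.

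S-phase genes, which are transcribed as cells replicate their DNA, showed the lowest medians of the lists in clone 2, at -0.34 on the log2 scale, after -0.23 in clone 1, over 20 of 20 genes. Reads were recovered for 17 of them, of which 12 were lower and 1 higher in clone 1 (25.4% and 36% of all genes), and 14 were lower and 1 higher in clone 2 (35.2% and 32.3% of all genes). The lowest log2 differences were those of GINS2 and TYMS (-0.52 and -0.43). GINS2, a subunit of the replicative helicase, was at 20.6, 14.7 and 13.4 FPKM, and TYMS, which makes thymidylate, at 35.0, 30.9 and 21.3 FPKM. GINS4 (3.62, 3.82 and 4.37 FPKM) and the cyclin gene CCNE2 (2.57, 3.44 and 2.64 FPKM) had the highest log2 differences of the list (0.14 and 0.17). In bulk RNA, fewer cells in S phase and less RNA per cell cannot be told apart, and their part in the levels of MSH6, POLE and POLD1 was not tested.

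The genes closest to MSH6 in pattern over the 3 libraries, by the distance between centred log2(FPKM + 1) values, were DBF4 (distance 0.00384), PNPLA4 (0.00442) and PPP1CA (0.00482). DBF4, which activates the kinase that fires replication origins, was at 12.0, 11.6 and 9.28 FPKM. PNPLA4 was at 5.93, 5.72 and 4.49 FPKM, and PPP1CA at 41.7, 40.4 and 32.7 FPKM. The scale of FPKM + 1 understates the change of low genes such as MSH6, so a like pattern here is not a like fold. With 3 libraries a pattern is easily matched, and 202 genes lay within a distance of 0.05.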

How the data were processed

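The authors deposited FPKM values per gene, 1 column for each library. An Illumina TruSeq RNA kit was used. The submitters' processing notes name Trim Galore 0.3.7, STAR 2.5, Cufflinks 2.2.1, a count-based test and the build hg19, without their roles. The annotation and the use of strand are not given in the sources used here. The count-based test needs counts as deposited and was not run.

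Of the 60504 identifiers, 56996 are in GENCODE release 29 (GRCh38), which gave lengths and positions, and the table itself holds no coordinates. Depths were fitted on genes with 1 annotated transcript, as the values at which FPKM times merged exon length became whole. The share of values that were whole within 0.02 was then taken over low values under 20 reads. Genes with 1 annotated transcript met this in 98.7% to 98.93% of their low values, other genes in 88.92% to 89.79%. Reads of 10516 of the 11675 tested genes (90.1%) were recovered. For PMS1 and POLD1 the nearest length that gave whole reads was used (5448 nt for 5454 nt, and 4858 nt for 4932 nt).

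Genes whose control value and clone mean averaged 1 FPKM or more were fitted with limma 3.58.1 (R 4.3.3, with trend) on log2(FPKM + 1). Reads were tested with scipy 1.17.1 (Python 3.11.15), with exact Clopper-Pearson intervals. Both were run on simulated data with known changes. For limma the simulated spread was smoothed over genes and capped, so that run does not show which changes could be called here. The named genes were the 8 members, the listed neighbours, the genes of each list with the highest and lowest log2 differences between clone mean and control, and the genes most like MSH6. FBXO11, PCNA, EXO1, OGG1, PMS2CL and PMS2P1 were named in addition after their values were seen. 1 listed neighbour is not reported here. The members and lists were chosen with earlier results of these data known.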

Additional observations from a re-analysis of the deposited data

How the results depend on the processing

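The limma fit called 0 genes and 0 members under a pseudocount of 0.1 FPKM, median-ratio scaling, TPM scaling, no low-value filter, a minimum mean of 5 FPKM and no trend, with between 51 and 1578 genes at an unadjusted p under 0.05. Restriction to protein-coding genes also called 0 members. The filter at 5 FPKM left 4 members to test. TPM scaling moved the median of all genes by 0.062 and turned MLH3 to 0.04 and PMS1 to 0.009 on the log2 scale. The pseudocount was not rescaled, so TPM scaling also made it smaller relative to the values. It is therefore not a check separate from the lower pseudocount. Leaving out 1 clone gave values without a test, from -0.04 to 0.02 for MLH3, -0.23 to 0.14 for PMS1, -0.28 to 0.13 for POLE and -0.48 to 0.21 for MUTYH, in each case with clone 1 alone above the control. The members' median then ran from -0.21 (clone 2 alone) to 0.14 (clone 1 alone). At the 25% threshold, 1 member instead of 0 was higher in clone 1 against the control with the lower pseudocount and with TPM scaling. In clone 2 against clone 1, 4 members instead of 3 were lower with each of these settings, and 2 with median-ratio scaling. At 2-fold, 0 members were lower in clone 2 against either library. With depths scaled by the median ratio or by the FPKM sum, chosen after the data were seen, 1 member, POLD1, instead of 0 was higher in clone 2 than in clone 1. Median-ratio scaling also ended the calls of PMS1 in clone 1 against the control and of PMS2 between the clones (exact binomial adjusted p 0.0839 and 0.202). No paired analysis was possible because the control has 1 library and shares no pairing with the clones. The variation of DLD1 control cells was not measured, and the intervals of the folds cover counting error only.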

Other observations

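Some listed repair genes fell under the filter on low values or moved differently in the clones. MSH4, a meiotic relative of MSH6, had 104, 133 and 158 reads (0.671, 1.14 and 1.01 FPKM in control, clone 1 and clone 2), and MSH5, its partner, had 199, 179 and 206 reads. POLD4, the smallest subunit of polymerase delta, had 77, 106 and 124 reads, and both clones were above the control in FPKM (0.532, 0.977 and 0.852), while POLD1 and POLD2 were below it. Among glycosylases, UNG, which removes uracil, was at 0.808-fold of the control in clone 1 and 0.997-fold in clone 2, lower in clone 1 than in DLD1 control cells (exact binomial adjusted p = 5.75e-13), and NEIL3 was at 3.65, 3.67 and 2.27 FPKM, lower in clone 2 (adjusted p = 4.27e-11). These genes were named after their values were seen.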
